A study of Mus musculus with 18 samples.

Results

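Hearts of mice that had been given aNMP-2a on day 3 after myocardial infarction were compared with hearts of infarcted mice that had been given PBS, a salt buffer, on that day. The comparison takes 6 of the series' 18 libraries, 3 of aNMP-2a_D3 and 3 of PBS_D3, chosen by their labels and by the deposited table that holds both groups. Poly(A) RNA of the heart was sequenced, and the tissue of both groups was taken on day 4, 1 day after the injection. aNMP-2a is a nanomedicine that the deposited table names after M2a, a macrophage state; what it is made of is not given in the sources used here.

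Both groups carried the infarct, so neither is a healthy heart. The sources used here do not give the strain, sex or age of the mice, how the infarct was made, which piece of the heart was taken or the hour of collection. Nor do they say that each library came from a separate animal, and p-values therefore measure only the spread between these samples. The other 12 libraries belong to later days and are used here only to set their own differences beside those of day 3. In aNMP-2a+2b_D7 and aNMP-2a+PBS_D7, mice had aNMP-2a on day 3 and then aNMP-2b or PBS on day 7, with tissue on day 8. In aNMP-2a+2b+2c_D14 and aNMP-2a+2b+PBS_D14, mice had both earlier agents and then aNMP-2c or PBS on day 14, with tissue on day 15.

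As background, a heart that has lost muscle is first cleared by neutrophils and macrophages and is then filled by fibroblasts, which divide, make collagen and, as myofibroblasts, take on smooth muscle actin. Macrophages in culture are sorted by their stimulus into states such as M2a, which follows interleukin-4 and carries genes such as Arg1, Retnla and Mrc1, and M2c, which follows interleukin-10 or glucocorticoid and is tied to the uptake of dead cells. Heart cells also run a circadian clock, a loop in which the activators BMAL1 (gene Arntl), CLOCK and NPAS2 turn on the Per and Cry repressors and the Rev-erb genes Nr1d1 and Nr1d2, which in turn hold the activators down.

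Levels are in FPKM, which divides a gene's fragments by its transcript length and by the library's total. The 6 libraries had FPKM sums from 722427 to 738931 and held 12338 to 12545 genes at 1 FPKM or more. The table holds no read counts and the absolute depth is unknown. The steps of the lowest values gave relative depths of 0.964 to 1.00. Only values close to the lowest of each gene were used for this, so a large difference in depth could not show. Across genes, Pearson r on the log scale was between 0.984 and 0.987 among aNMP-2a_D3 libraries, at 0.992 among PBS_D3 libraries and between 0.978 and 0.984 across the groups. The marker genes of ventricular muscle were high in all 6 libraries: Myl2, the ventricular myosin light chain, had 17492, 18029 and 13208 FPKM in aNMP-2a_D3, against 19028, 19238 and 17682 FPKM in PBS_D3. The summed level of 7 heart muscle markers was between 35530 and 42260 FPKM in aNMP-2a_D3, below the range of 42518 to 45087 FPKM in PBS_D3.

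Markers of neighbouring tissues differed between the groups, and within aNMP-2a_D3 between libraries. Myl7, the atrial myosin light chain, had 1312, 2.56 and 2982 FPKM in aNMP-2a_D3, against 1.28, 0.67 and 0.24 FPKM in PBS_D3. Sln (sarcolipin), also an atrial gene, had 457, 0 and 807 FPKM in aNMP-2a_D3, against 0, 0 and 0 FPKM in PBS_D3. Replicates 1 and 3 of aNMP-2a_D3 thus held atrial transcripts that replicate 2 and all PBS_D3 libraries had at 2.56 FPKM or less for Myl7 and at 0 for Sln. The fat hormone gene Adipoq followed the same libraries, with 4.77, 0.36 and 4.86 FPKM in aNMP-2a_D3, against 0.07, 0.07 and 0 FPKM in PBS_D3. The sum of 3 mesothelial markers was between 46.6 and 56.9 FPKM in aNMP-2a_D3 and between 3.59 and 11.3 FPKM in PBS_D3, and here replicate 2 did not stand apart. Lung markers were low, with the surfactant gene Sftpc at 0 in all 6 libraries and the sum of 3 lung markers at 1.81 FPKM or less in aNMP-2a_D3 and 0.68 FPKM or less in PBS_D3. The part of these markers in the results below was not tested beyond the fits that leave the atrial-rich libraries out or take an atrial score as a covariate. A bulk sample cannot tell fewer cells of a type apart from less RNA per cell.

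**Figure D1:**
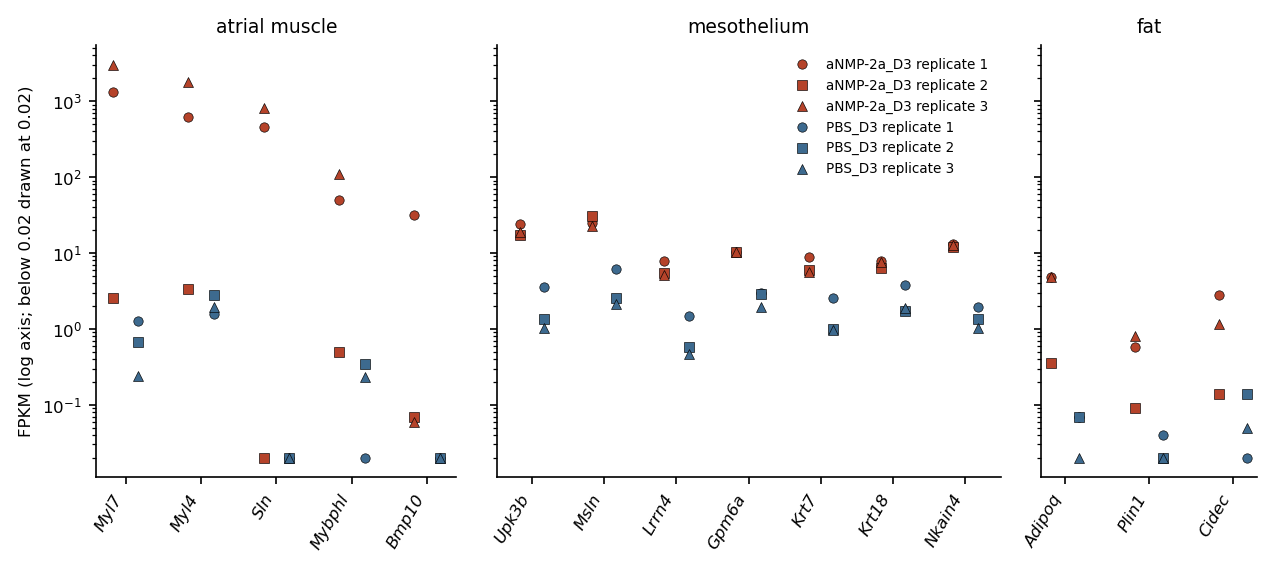
Level of marker genes of atrial muscle, mesothelium and fat in each day 3 library, in FPKM on a log axis, with aNMP-2a_D3 (red) left of PBS_D3 (blue) for each gene. Atrial genes and Adipoq are high in aNMP-2a_D3 replicates 1 and 3 only (Bmp10 in replicate 1 only). For the 7 mesothelial genes drawn, all 3 aNMP-2a_D3 libraries lie above all 3 PBS_D3 libraries. These 7 were drawn from the called genes, and no called gene had groups that overlapped. Of the 15 tested genes of the mesothelial and epicardial list, 12 had no overlap, against 22.9% of all genes tested. Tbx18 and Aldh1a2, which overlapped, are not drawn.

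Hearts taken 1 day after aNMP-2a had less transcript of the clock activators Arntl and Npas2 and more of the Per genes. They had more of mesothelial genes and of several detoxifying enzymes, but less of the detoxifying enzyme gene Nqo1. Smooth muscle actin, several matrix proteases and several mitotic genes were lower. Few macrophage genes passed, and 0 of 16 M2a genes did. Genes were tested where at least 3 of the 6 libraries reached 1 FPKM, which kept 12512 of 18414; 10 genes, such as Stac2, passed with exactly 1 FPKM in the library that decided it, and 16, such as Gpr137c, just missed it at 0.99 FPKM. Genes without a call that are named below as contrasts, such as Wt1, Pcna and Myh6, were in part chosen after their values were seen. Of these 12512 genes, 230 (1.84%) passed a Benjamini-Hochberg adjusted p of 0.05 in limma, 176 (1.41%) higher and 54 (0.432%) lower in aNMP-2a_D3. At least 2-fold changes on the log2(FPKM + 0.5) scale made up 73 of the rises and 9 of the falls. All 230 had groups that did not overlap, as did 22.9% of all genes tested. The genes that rose held 1.99% of all FPKM in aNMP-2a_D3 and 1.13% in PBS_D3, and those that fell held 0.134% in aNMP-2a_D3 and 0.213% in PBS_D3. The median log2 fold change of all genes tested was 0.03, and 56.7% were positive. An unadjusted p under 0.05 was found for 2099 genes (16.8%).

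**Figure D2:**
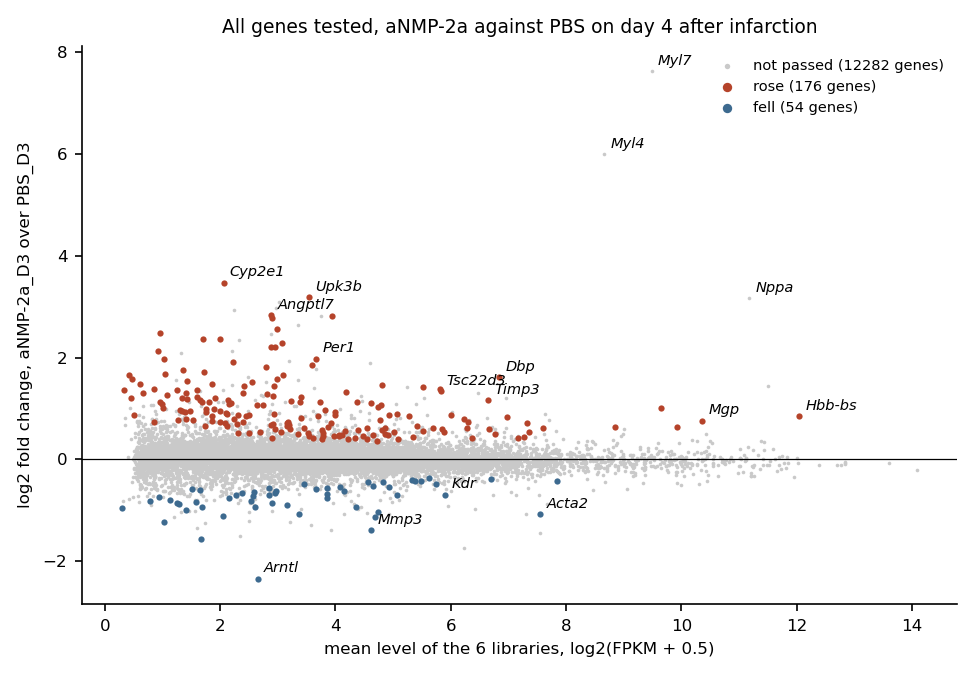
Log2 fold change of aNMP-2a_D3 over PBS_D3 against mean level for the 12512 genes tested, on the log2(FPKM + 0.5) scale. The 176 genes that rose are red and the 54 that fell are blue; Myl7, Myl4 and Nppa have large fold changes without passing, and 2 aNMP-2a_D3 libraries hold their transcripts at high level.

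The count depends on each PBS_D3 library. Without PBS_D3 replicate 1, 2 or 3 it was 83, 78 or 72 genes, while without aNMP-2a_D3 replicate 1, 2 or 3 it was 256, 213 or 199. A fit that shares 1 spread among all 18 libraries called 3 genes, and an atrial score as a covariate left 22. With both atrial-rich libraries out, so that aNMP-2a_D3 replicate 2 alone stood against 3 PBS_D3 libraries and was assumed to vary like them, 229 genes passed, of which 100 were among the 230. Of 81 named genes with a call, 40, 49 and 49 lost it without PBS_D3 replicates 1, 2 and 3, and 28, 20 and 24 without aNMP-2a_D3 replicates 1, 2 and 3.

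Arntl and Npas2, which encode clock activators, fell. Arntl, which encodes the DNA-binding activator BMAL1, had 1.22, 1.51 and 2.04 FPKM in aNMP-2a_D3 and 9.03, 10.6 and 10.4 FPKM in PBS_D3. The highest aNMP-2a_D3 library was far below the lowest PBS_D3 library, and no other gene that fell had a larger fold change (log2 fold change −2.34, SE 0.15, adjusted p = 5.82e-04). Npas2, which can stand in for CLOCK as the partner of BMAL1, had 0.59, 0.68 and 0.9 FPKM in aNMP-2a_D3, against 2.23, 2.23 and 2.67 FPKM in PBS_D3, and fell (log2 fold change −1.24, SE 0.15, adjusted p = 0.007). Clock itself had 3.6, 4.04 and 4.33 FPKM in aNMP-2a_D3, against 4.74, 5.49 and 5.64 FPKM in PBS_D3; its groups did not overlap either, but the difference did not pass (log2 fold change −0.37, adjusted p = 0.15). Of 9 tested genes of the activator and Cry list, 2 fell and 1 rose, with a median log2 fold change of 0.06. By limma, 7 of the 9 had an unadjusted p under 0.05, against 16.8% of all genes tested. The gene that rose was Cry1, a repressor of CLOCK and BMAL1, at 6.65, 6.64 and 6.38 FPKM in aNMP-2a_D3 and 3.6, 3.17 and 3.52 FPKM in PBS_D3 (log2 fold change 0.85, SE 0.09, adjusted p = 0.00388). All 3 calls were also made without each of the 6 libraries in turn; with the atrial score 1 was left.

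Most repressors and output factors of the loop rose. Of 12 tested genes of the list of Per, Rev-erb and PAR bZIP genes, 9 rose, 0 fell and 3 did not pass, with a median log2 fold change of 1.5. An unadjusted p under 0.05 by limma was found for 11 of the 12, against 16.8% of all genes tested. Per1, Per2 and Per3 encode the period repressors. Per1 had 22.6, 20.7 and 16.1 FPKM in aNMP-2a_D3, against 4.9, 4.27 and 4.67 FPKM in PBS_D3. Per2 was at 15.8, 13.1 and 11.6 FPKM in aNMP-2a_D3 and at 3.18, 1.72 and 2.38 FPKM in PBS_D3. Per3 reached 19.1, 19 and 17.1 FPKM in aNMP-2a_D3, with 6.21, 3.84 and 4.32 FPKM in PBS_D3. For each of the 3, every aNMP-2a_D3 library was above every PBS_D3 library, with log2 fold changes of 1.98 (SE 0.13, adjusted p = 5.82e-04), 2.28 (adjusted p = 0.00205) and 1.86 (adjusted p = 0.00189). Ciart, a further repressor of BMAL1, had 15, 10.7 and 10.9 FPKM in aNMP-2a_D3, against 1.97, 1.79 and 3.01 FPKM in PBS_D3 (log2 fold change 2.21, SE 0.19, adjusted p = 0.00205).

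Dbp, Tef and Hlf encode the PAR bZIP factors, which carry the rhythm of the clock to enzyme genes through D-boxes. Dbp averaged 173 ± 16.3 FPKM in aNMP-2a_D3 and 56.2 ± 9.53 FPKM in PBS_D3 (mean ± SD, n = 3 each). Its lowest aNMP-2a_D3 library stood at more than the highest PBS_D3 library, and it rose (log2 fold change 1.62, SE 0.13, adjusted p = 0.00146). Tef had 91.7, 79.6 and 71 FPKM in aNMP-2a_D3, against 35.7, 27.9 and 28.8 FPKM in PBS_D3, and Hlf had 13.1, 12.2 and 11.9 FPKM in aNMP-2a_D3, against 4.33, 3.54 and 3.08 FPKM in PBS_D3. Both rose, by 1.38 (adjusted p = 0.00205) and 1.65 (adjusted p = 9.23e-04) on the log2 scale. The remaining members with calls were Nr1d2, the Rev-erb beta receptor (0.90, adjusted p = 0.00195), and Bhlhe41, a repressor that binds the same E-boxes as BMAL1 (0.68, adjusted p = 0.0111), both log2 fold changes.

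The 2 Rev-erb genes did not move alike. Nr1d2 had 44.1, 44.6 and 40.9 FPKM in aNMP-2a_D3, against 24.7, 22.6 and 21.7 FPKM in PBS_D3, with no overlap. Nr1d1, the Rev-erb alpha receptor, had 73.5, 72.5 and 79.3 FPKM in aNMP-2a_D3, against 84.7, 85.8 and 64.1 FPKM in PBS_D3; its groups overlapped (log2 fold change −0.05, adjusted p = 0.869). Usp2, a clock-driven deubiquitinase, and Bhlhe40 did not pass (log2 fold changes 0.62, adjusted p = 0.0623 and 0.20, adjusted p = 0.291). Without any 1 of the 6 libraries, 8 to 10 of the 12 passed, and with aNMP-2a_D3 replicate 2 alone 8 passed with a median of 1.45; with the atrial score 2 passed, and in the fit of all 18 libraries 0.

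**Figure D3:**
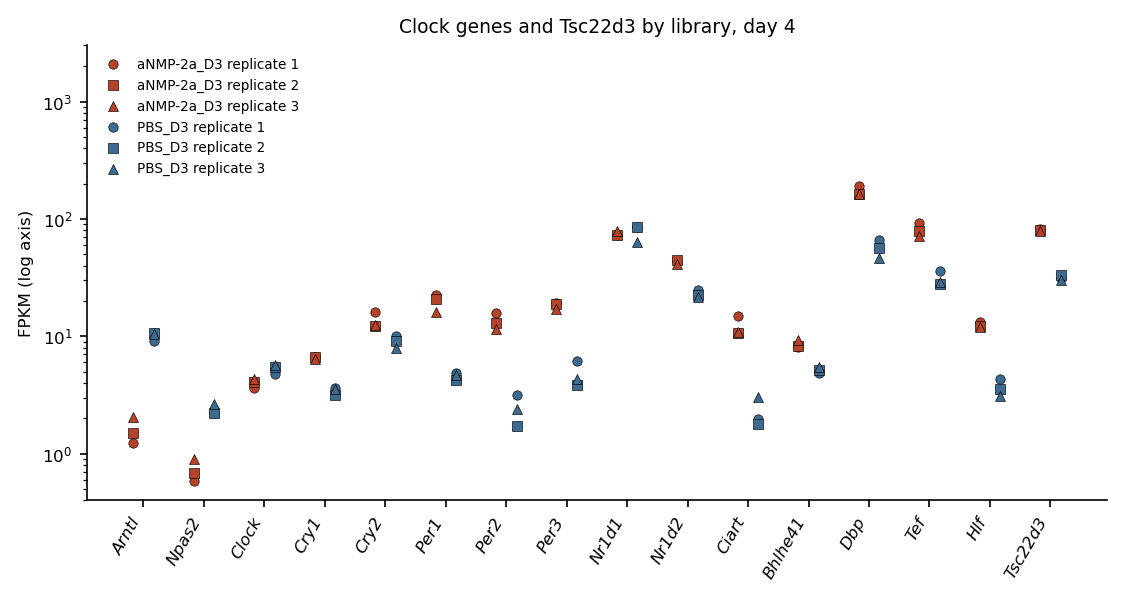
Level of clock genes and of Tsc22d3 in each day 3 library, in FPKM on a log axis, with aNMP-2a_D3 (red) left of PBS_D3 (blue). Arntl and Npas2 lie lower and Cry1, the Per genes, Nr1d2, Ciart, Bhlhe41, Dbp, Tef, Hlf and Tsc22d3 higher in every aNMP-2a_D3 library, while the groups overlap for Nr1d1.

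The promoters of these genes are shown because the loop is known to act through short motifs in them. RefSeq promoters of GRCm38.p6, from 250 bases before to 50 bases after a start site, were available for 10000 of the 12512 genes and were searched on both strands. Shares are of genes with a promoter, and a gene counts where any of its promoters holds the motif. The E-box CACGTG, the site of BMAL1 and its partners, was in 11.7% of genes tested. It was in 4 of the 10 of the Per list with a promoter (Per1, Tef, Ciart and Bhlhe41). Of all genes that rose 13.3% held it, and of those that fell 2.44%. Capitals mark the E-box in the promoters of Per1 (chr11:69098699-69098998, plus strand), Ciart (chr3:95882179-95882478, minus strand) and Cry1 (chr10:85185005-85185304, minus strand), each written 5′ to 3′ on the strand of the gene:
Per1: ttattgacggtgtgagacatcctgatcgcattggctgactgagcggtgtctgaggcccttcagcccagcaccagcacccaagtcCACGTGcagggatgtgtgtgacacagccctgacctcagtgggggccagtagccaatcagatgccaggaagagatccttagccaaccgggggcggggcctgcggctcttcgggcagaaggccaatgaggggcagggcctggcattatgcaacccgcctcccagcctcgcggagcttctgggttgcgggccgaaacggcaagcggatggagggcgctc
Ciart: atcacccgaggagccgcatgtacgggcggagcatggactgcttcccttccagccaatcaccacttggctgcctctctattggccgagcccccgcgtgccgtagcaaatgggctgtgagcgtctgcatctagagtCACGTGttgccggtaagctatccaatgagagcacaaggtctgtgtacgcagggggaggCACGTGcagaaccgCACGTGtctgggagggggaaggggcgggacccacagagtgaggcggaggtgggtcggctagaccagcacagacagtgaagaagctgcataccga
Cry1: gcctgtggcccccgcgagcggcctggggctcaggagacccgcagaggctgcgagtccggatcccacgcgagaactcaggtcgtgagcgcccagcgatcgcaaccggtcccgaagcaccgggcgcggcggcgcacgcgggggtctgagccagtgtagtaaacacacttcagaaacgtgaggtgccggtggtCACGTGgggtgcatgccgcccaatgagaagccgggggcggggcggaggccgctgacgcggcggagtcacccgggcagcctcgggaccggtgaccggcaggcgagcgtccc
The Per1 match begins 166 bases before the start site and that of Cry1 60 bases before it, while Ciart has 3 matches.

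The D-box TTANGTAA, the site of the PAR bZIP factors, was in 1.82% of genes tested that had a promoter. Among the called genes of the Per list Per3 alone held it, with 2 matches (chr4:151044616-151044915, minus strand). The ROR element core TAGGTCA, which ROR activators and REV-ERB repressors share, was in 2.32% of these tested genes. Arntl held it (chr7:113207261-113207560, plus strand), where the match begins 30 bases after the start site. Capitals mark the D-box in Per3 and the ROR element core in Arntl:
Per3: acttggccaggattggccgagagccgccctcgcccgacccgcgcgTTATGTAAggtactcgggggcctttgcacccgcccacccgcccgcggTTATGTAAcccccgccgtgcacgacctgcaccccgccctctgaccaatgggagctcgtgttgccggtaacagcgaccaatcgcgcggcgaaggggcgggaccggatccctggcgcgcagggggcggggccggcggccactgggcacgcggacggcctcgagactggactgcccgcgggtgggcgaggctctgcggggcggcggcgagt
Arntl: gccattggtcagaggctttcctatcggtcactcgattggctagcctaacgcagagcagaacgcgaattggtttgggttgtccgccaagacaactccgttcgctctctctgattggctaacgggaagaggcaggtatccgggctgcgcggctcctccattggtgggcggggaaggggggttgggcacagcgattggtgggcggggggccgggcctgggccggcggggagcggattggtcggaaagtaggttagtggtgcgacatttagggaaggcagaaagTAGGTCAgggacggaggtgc
Over all 32851 promoters of the table, the E-box was in 7.15%, the D-box in 2.32% and the ROR element core in 2.61%. These last shares count promoters and not genes, so they cannot be set directly beside those above. A match is a description of the letters and does not show that a factor binds there.

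Genes that glucocorticoid hormones induce were examined beside the clock, since Per1 belongs to both. Of 16 tested members, 4 rose, 0 fell and 12 did not pass, with a median log2 fold change of 0.33. Of all genes tested, 1.41% rose. An unadjusted p under 0.05 by limma was found for 9 of the 16, against 16.8% of all genes tested. Tsc22d3, which encodes the anti-inflammatory leucine zipper GILZ, had 82.1, 80.4 and 79.3 FPKM in aNMP-2a_D3 and 31.3, 33.1 and 30.4 FPKM in PBS_D3. Its libraries lay close together within each group and far apart between them, and it had the smallest p of all genes tested (log2 fold change 1.34, SE 0.07, adjusted p = 2.92e-04). Klf9, a Krüppel-like repressor, had 30.8, 28.8 and 28.2 FPKM in aNMP-2a_D3, against 22.4, 22.7 and 22.9 FPKM in PBS_D3, a small rise without overlap (log2 fold change 0.36, adjusted p = 0.0459). Sult1a1, a sulfotransferase, had 58.5, 52.5 and 38.8 FPKM in aNMP-2a_D3, against 27.2, 27.3 and 26.5 FPKM in PBS_D3 (log2 fold change 0.85, adjusted p = 0.0291). Other classical targets did not pass: Fkbp5, a chaperone of the glucocorticoid receptor, had a log2 fold change of 0.61, adjusted p = 0.0711, Sgk1, a kinase, of 0.01, adjusted p = 0.965, and Pdk4, which restrains glucose oxidation, of −0.97, adjusted p = 0.095. Without any 1 of the PBS_D3 libraries 2 of the 16 passed.

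Genes of the mesothelium, the sheet of cells that covers the outside of the heart, rose in part. Of 15 tested genes of the mesothelial and epicardial list, 8 rose, 0 fell and 7 did not pass. The median log2 fold change was 1.81 and 14 of the 15 were positive. By limma, 13 of the 15 had an unadjusted p under 0.05, against 16.8% of all genes tested. Upk3b, a uroplakin of the mesothelial surface, had 24.4, 17.4 and 19 FPKM in aNMP-2a_D3 and 3.61, 1.36 and 1.02 FPKM in PBS_D3. Msln, which encodes mesothelin, had 24.6, 31.1 and 22.6 FPKM in aNMP-2a_D3, against 6.21, 2.56 and 2.1 FPKM in PBS_D3. Nkain4, a partner of the sodium pump, had 13, 12 and 12.7 FPKM in aNMP-2a_D3, against 1.95, 1.33 and 1.03 FPKM in PBS_D3. In all 3 genes the lowest aNMP-2a_D3 library was above the highest PBS_D3 library, and PBS_D3 replicate 1 was the highest of its group. Their log2 fold changes were 3.18 (adjusted p = 0.0226), 2.81 (adjusted p = 0.0297) and 2.78 (adjusted p = 5.82e-04). Gpm6a, a membrane glycoprotein, was even within each group, at 10.2, 10.3 and 10.3 FPKM in aNMP-2a_D3 and 2.96, 2.87 and 1.95 FPKM in PBS_D3 (log2 fold change 1.81, SE 0.14, adjusted p = 0.00104).

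The keratins Krt7 (1.92, adjusted p = 0.0422) and Krt18 (1.44, adjusted p = 0.0422), the surface protein gene Lrrn4 (2.35, adjusted p = 0.0143) and Rspo1 (1.22, adjusted p = 0.0148), a Wnt-enhancing ligand, rose as well. Members of the list that did not pass include Wt1, Tbx18 and Aldh1a2. Wt1, the Wilms tumour factor, had 5.65, 4.9 and 3.31 FPKM in aNMP-2a_D3, against 2.57, 2.52 and 2.37 FPKM in PBS_D3 (log2 fold change 0.75, adjusted p = 0.0782). Tbx18 had 2.07, 2.53 and 4.36 FPKM in aNMP-2a_D3, against 2.23, 2.04 and 1.97 FPKM in PBS_D3, with groups that overlapped (log2 fold change 0.38, adjusted p = 0.425). Aldh1a2, which makes retinoic acid, had 22.2, 41.1 and 28.2 FPKM in aNMP-2a_D3, against 38, 24.7 and 34.6 FPKM in PBS_D3 and the only negative log2 fold change of the list (−0.11, adjusted p = 0.857). With aNMP-2a_D3 replicate 2 alone against PBS_D3, the median was 1.77. With the atrial score Upk3b, Msln and Lrrn4 did not pass by limma (adjusted p = 0.165, 0.142 and 0.147). In that fit 2 members passed, Nkain4 and Gpm6a (adjusted p = 0.0227 and 0.0419). Without PBS_D3 replicate 2 or 3 the count was 2, without PBS_D3 replicate 1 it was 11, without aNMP-2a_D3 replicate 1 it was 4 and without aNMP-2a_D3 replicate 3 it was 5.

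Further large rises were found by size or by small p. Angptl7, a secreted angiopoietin-like protein of connective tissue, had 15, 10.2 and 12.3 FPKM in aNMP-2a_D3 and 1.49, 1.22 and 1.22 FPKM in PBS_D3 and stood in each aNMP-2a_D3 library well above PBS_D3 (log2 fold change 2.83, SE 0.14, adjusted p = 2.92e-04). It belongs to a list of 11 tested valve-like and tendon-like matrix genes. An unadjusted p under 0.05 by limma was found for 8 of the 11, against 16.8% of all genes tested. Of the 11, 2 rose and 0 fell (median log2 fold change 0.71), while 1.41% of all genes tested rose. The other was Chad, chondroadherin, at 2.54, 1.28 and 4.72 FPKM in aNMP-2a_D3, against 0.14, 0 and 0 FPKM in PBS_D3, so low in PBS_D3 that its log2 fold change of 2.49 (adjusted p = 0.0222) depends on the 0.5 added to FPKM. Comp, cartilage oligomeric matrix protein, had 12.5, 6.13 and 27 FPKM in aNMP-2a_D3, against 2.23, 4.69 and 5.95 FPKM in PBS_D3 and did not pass (log2 fold change 1.57, adjusted p = 0.282). Lgals7, galectin-7, had 14.5, 12 and 12.1 FPKM in aNMP-2a_D3, against 3.34, 0.88 and 1.66 FPKM in PBS_D3 (log2 fold change 2.56, SE 0.36, adjusted p = 0.0297). Chil1, a chitinase-like secreted protein, had 3.22, 5.97 and 5.63 FPKM in aNMP-2a_D3, against 0.87, 0.25 and 0.54 FPKM in PBS_D3 (log2 fold change 2.37, SE 0.28, adjusted p = 0.00909). Ahsg, which encodes the serum protein fetuin-A, had 12.3, 8.45 and 14.1 FPKM in aNMP-2a_D3, against 2.05, 2.55 and 1.7 FPKM in PBS_D3 (log2 fold change 2.2, SE 0.20, adjusted p = 0.00229). In these 3 genes, too, no aNMP-2a_D3 library came down to the range of PBS_D3. Chad did not pass by limma without any 1 of the PBS_D3 libraries (adjusted p = 0.0781, 0.0982 and 0.12). Lgals7 did not pass without any 1 of the aNMP-2a_D3 libraries (adjusted p = 0.0635, 0.0613 and 0.106). Without PBS_D3 replicate 3, Lgals7 and Chil1 did not pass (adjusted p = 0.134 and 0.0635). Chad, Lgals7 and Chil1 did not pass with the atrial score. Angptl7 and Ahsg lost their calls only in the fit of all 18 libraries.

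Enzymes that handle foreign compounds, aldehydes and sterols rose in part. Of 15 tested genes of that list, 5 rose, 0 fell and 10 did not pass, with a median log2 fold change of 0.34. Of all genes tested, 1.41% rose. An unadjusted p under 0.05 by limma was found for 8 of the 15, against 16.8% of all genes tested. Cyp2e1, a cytochrome P450 that oxidises small solvents and is abundant in liver and fat, had 10.3, 2.74 and 8.62 FPKM in aNMP-2a_D3 and 0.35, 0.05 and 0 FPKM in PBS_D3. Like the fat gene Adipoq it was highest in replicates 1 and 3 of aNMP-2a_D3, but replicate 2 also lay above every PBS_D3 library. Its log2 fold change of 3.47 (adjusted p = 0.0291) depends on the 0.5 added. Aldh1a1, which oxidises retinaldehyde, had 33, 31.3 and 35.2 FPKM in aNMP-2a_D3, against 14.3, 15.4 and 15.5 FPKM in PBS_D3. Fmo2, a flavin monooxygenase, had 30.8, 27.2 and 25.3 FPKM in aNMP-2a_D3, against 12.4, 13.7 and 11.4 FPKM in PBS_D3. Both rose with tight replicates, by 1.11 (adjusted p = 8.23e-04) and 1.12 (adjusted p = 0.00205) on the log2 scale. Cyp27a1, the sterol 27-hydroxylase (0.45, adjusted p = 0.034), and the aldehyde dehydrogenase gene Aldh3a1 (1.75, adjusted p = 0.0397) were the others. Cyp1a1 and Cyp1b1, the usual targets of the aryl hydrocarbon receptor, did not pass (log2 fold changes −0.51, adjusted p = 0.561 and 0.40, adjusted p = 0.426). Without 1 of the PBS_D3 libraries, 2 of the 15 passed. Nqo1, from a separate list of NRF2 targets and antioxidant genes, fell. It had 30.2, 23.6 and 22.2 FPKM in aNMP-2a_D3, against 41.6, 37.7 and 43.8 FPKM in PBS_D3 (log2 fold change −0.70, adjusted p = 0.0334 by limma). Without any 1 of the PBS_D3 libraries Nqo1 did not pass (adjusted p = 0.129, 0.0766 and 0.149). Of the 18 tested genes of that list 0 rose, 1 fell and 12 were negative (median −0.08).

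Smooth muscle actin fell. Acta2, which smooth muscle cells and myofibroblasts both express, had 123, 110.3 and 129 FPKM in aNMP-2a_D3 and 263, 250.3 and 250.1 FPKM in PBS_D3. The groups were far apart and their libraries tight, with about the same level in each PBS_D3 library (log2 fold change −1.07, SE 0.08, adjusted p = 0.00104). All 12 tested smooth muscle genes had negative log2 fold changes (median −0.31), but Acta2 was the only one of them that passed. An unadjusted p under 0.05 by limma was found for 4 of the 12, against 16.8% of all genes tested. Myh11, the smooth muscle myosin heavy chain and a more specific marker, had 7.82, 6.54 and 5.48 FPKM in aNMP-2a_D3, against 7.59, 10.3 and 11.9 FPKM in PBS_D3, with overlapping groups (log2 fold change −0.54, adjusted p = 0.197). Tagln, transgelin, had 32.7, 42.9 and 46.4 FPKM in aNMP-2a_D3, against 41.9, 63.4 and 82 FPKM in PBS_D3 (log2 fold change −0.58, adjusted p = 0.333). Of 12 pericyte genes, Ndufa4l2 fell (−0.36, adjusted p = 0.0489) and 0 rose, with a median of −0.22. An unadjusted p under 0.05 by limma was found for 5 of the 12. Ndufa4l2 did not pass without any 1 of the 6 libraries (adjusted p between 0.0613 and 0.176 by limma). Nor did it with plain empirical Bayes or the replicate block (adjusted p = 0.0706 and 0.0656).

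Of 18 tested collagen chains, 2 fell, 0 rose and 14 had negative log2 fold changes, with a median of −0.42. By limma, 9 of the 18 had an unadjusted p under 0.05, against 16.8% of all genes tested. Col5a3, a chain of the fibril-nucleating type V collagen, had 13.6, 16.6 and 16.7 FPKM in aNMP-2a_D3 and 37.4, 31.2 and 35.8 FPKM in PBS_D3, with no overlap (log2 fold change −1.13, SE 0.11, adjusted p = 0.00229). Col12a1, a collagen associated with fibrils under tension, had 1.35, 1.49 and 2.36 FPKM in aNMP-2a_D3, against 3.73, 3.4 and 3.98 FPKM in PBS_D3 (log2 fold change −0.94, adjusted p = 0.0408). The main fibrillar chains did not pass. Col1a1 had 338, 412 and 528 FPKM in aNMP-2a_D3, against 624, 522 and 755 FPKM in PBS_D3, with groups that overlap at their edges (log2 fold change −0.58, adjusted p = 0.198), and Col3a1 had a log2 fold change of −0.48, adjusted p = 0.234. Among 23 matricellular and scar genes 0 passed and 5 had an unadjusted p under 0.05 (16.8% of all genes tested), with a median of −0.29; Postn, periostin, had 178, 219 and 750.5 FPKM in aNMP-2a_D3, against 176, 235 and 389 FPKM in PBS_D3, and its replicate 3 of aNMP-2a_D3 was the highest library (log2 fold change 0.29, adjusted p = 0.85). With aNMP-2a_D3 replicate 2 alone, 4 collagen chains and 3 matricellular genes passed, with medians of −0.57 and −0.53; without aNMP-2a_D3 replicate 3, 6 collagen chains passed, and without any other 1 library 1 chain passed.

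Matrix proteases fell in part, and 1 of their inhibitors rose. Of 23 tested, 4 fell, 1 rose and 18 did not pass, and the median was −0.11. Of all genes tested, 1.84% passed. An unadjusted p under 0.05 by limma was found for 9 of the 23, against 16.8% of all genes tested. Mmp3, stromelysin-1, had 13.4, 13.5 and 12.1 FPKM in aNMP-2a_D3 and 39.5, 32.3 and 33.2 FPKM in PBS_D3. Each aNMP-2a_D3 library was below each PBS_D3 library by a wide margin (log2 fold change −1.39, SE 0.10, adjusted p = 8.23e-04). Adamts4, an aggrecanase, had 0.6, 1.47 and 1.24 FPKM in aNMP-2a_D3, against 3.99, 3.09 and 5.63 FPKM in PBS_D3 (log2 fold change −1.57, SE 0.27, adjusted p = 0.0345). The plasminogen activators fell together: Plau, the urokinase type, had 9.94, 10.5 and 8.61 FPKM in aNMP-2a_D3, against 14.6, 13.8 and 15.7 FPKM in PBS_D3, and Plat, the tissue type, had 23, 23.4 and 24.2 FPKM in aNMP-2a_D3, against 31.1, 33.2 and 32.9 FPKM in PBS_D3. Their log2 fold changes were −0.58 (adjusted p = 0.0293) and −0.45 (adjusted p = 0.0207). Timp3, the inhibitor of metalloproteinases that stays bound to matrix, had 134, 136 and 147 FPKM in aNMP-2a_D3, against 59.2, 61.4 and 64 FPKM in PBS_D3 and rose (log2 fold change 1.17, SE 0.07, adjusted p = 5.82e-04). Without 1 of the PBS_D3 libraries 2 of the 23 passed; calls of Mmp3 and Timp3 were lost in no alternative other than the fit of all 18 libraries (adjusted p = 0.69 and 0.0781).

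Genes of quiet fibroblasts rose in part. Of 16 resting fibroblast genes, 2 rose and 0 fell, with a median log2 fold change of 0.34 and 14 positive values. By limma, 9 of the 16 had an unadjusted p under 0.05, against 16.8% of all genes tested. Dcn, the collagen-binding proteoglycan decorin, had 986, 1328 and 1274 FPKM in aNMP-2a_D3, against 751, 771 and 753 FPKM in PBS_D3 (log2 fold change 0.65, adjusted p = 0.0396). Mgp, matrix Gla protein, which restrains calcification, had 1671, 1395 and 1879 FPKM in aNMP-2a_D3, against 815, 1066 and 1036 FPKM in PBS_D3 (log2 fold change 0.76, adjusted p = 0.0422). Pdgfra, a receptor that marks fibroblasts as a whole, had 20.9, 24.5 and 24.5 FPKM in aNMP-2a_D3, against 22.3, 21.6 and 23.6 FPKM in PBS_D3, with groups that overlapped (log2 fold change 0.05, adjusted p = 0.818). Without any 1 of the PBS_D3 libraries, Dcn (adjusted p = 0.148, 0.122 and 0.156) and Mgp (adjusted p = 0.131, 0.0886 and 0.132) did not pass, nor did they with plain empirical Bayes (adjusted p = 0.0529 and 0.0564). Among 15 TGF-beta, activin and BMP ligands, Gdf10 rose (1.27, adjusted p = 0.00293) and Inhbb, the activin beta B chain, fell (−0.99, adjusted p = 0.0433). An unadjusted p under 0.05 by limma was found for 3 of the 15, against 16.8% of all genes tested.

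**Figure D4:**
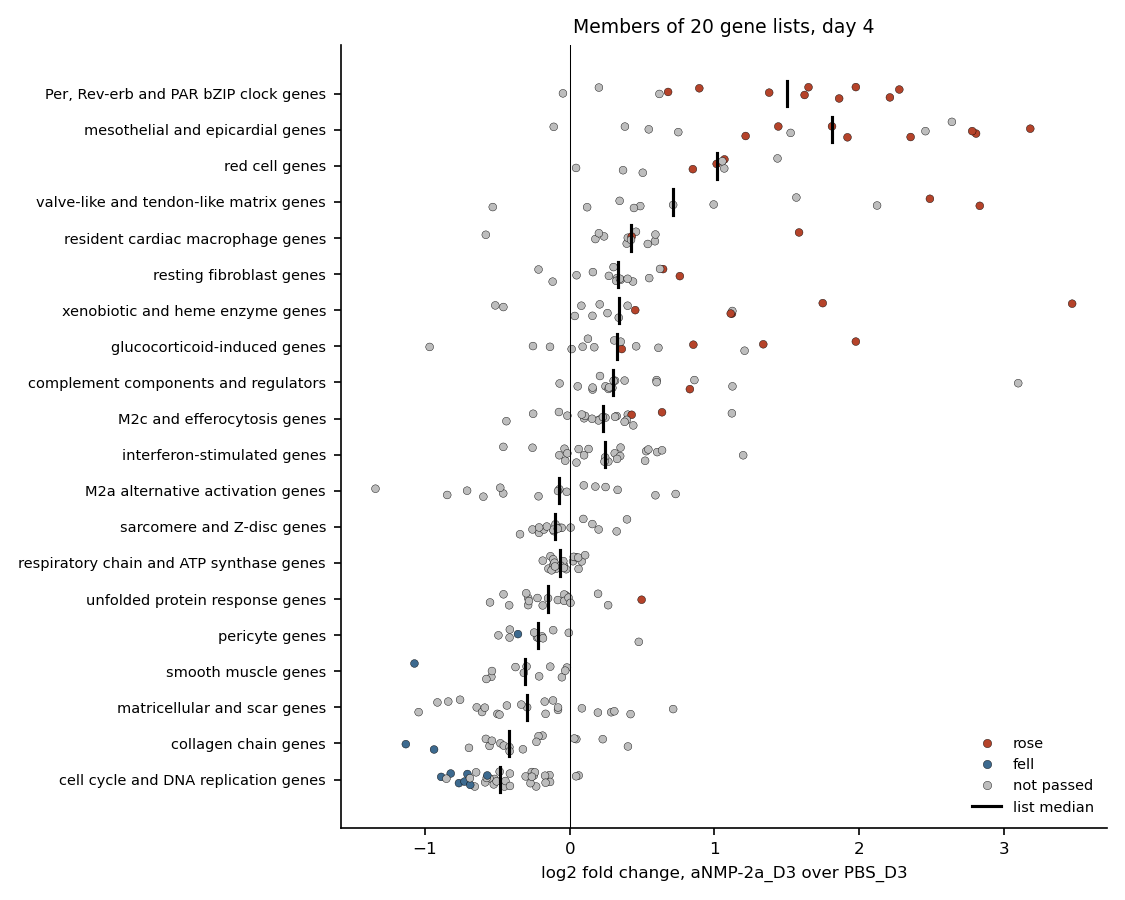
Log2 fold changes of the tested members of 20 gene lists, aNMP-2a_D3 over PBS_D3; each point is a gene, red where it rose, blue where it fell and grey where it did not pass, and the black bar is the list median. Medians range from 1.81 for mesothelial genes to −0.48 for cell cycle genes, with M2a, sarcomere and respiratory chain genes close to 0.

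Several mitotic genes fell. Of 35 tested genes of the cell cycle and DNA replication list, 7 fell, 0 rose and 28 did not pass; 33 had negative log2 fold changes and the median was −0.48. Cdc20, the activator of the anaphase-promoting complex, had 5.06, 6.04 and 6.23 FPKM in aNMP-2a_D3 and 11.9, 9.85 and 11.6 FPKM in PBS_D3. Aurka, the Aurora A kinase of the spindle poles, had 2.45, 2.89 and 3.06 FPKM in aNMP-2a_D3, against 5.47, 4.72 and 5.11 FPKM in PBS_D3. Birc5, survivin, had 9.08, 12.4 and 10.3 FPKM in aNMP-2a_D3, against 18.9, 15.5 and 17.5 FPKM in PBS_D3. In each of the 3, the highest aNMP-2a_D3 library was below the lowest PBS_D3 library, and the log2 fold changes were −0.89 (adjusted p = 0.00899), −0.77 (adjusted p = 0.0175) and −0.69 (adjusted p = 0.0389). Ccnb1 (cyclin B1, −0.82, adjusted p = 0.0422), Tpx2 (a spindle assembly factor, −0.73, adjusted p = 0.0222), Kif20a (a kinesin of cytokinesis, −0.71, adjusted p = 0.0349) and Racgap1 (a regulator of cytokinesis, −0.57, adjusted p = 0.0458) also fell.

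The 7 list members that fell act in mitosis and cytokinesis, but other mitotic members, such as Plk1 and Kif11, did not pass. By limma, 23 of the 35 members had an unadjusted p under 0.05, against 16.8% of all genes tested. Gins2, a replication gene outside the list, fell and is described further below. The members of the list that act in DNA replication did not pass. Among them, Pcna, the replication clamp, had 68.1, 75.9 and 69.1 FPKM in aNMP-2a_D3, against 80.2, 76.3 and 83.4 FPKM in PBS_D3 (log2 fold change −0.17, adjusted p = 0.309), and Mcm6, a subunit of the replicative helicase, had 15, 20.9 and 16.3 FPKM in aNMP-2a_D3, against 16.7, 15.7 and 17.1 FPKM in PBS_D3 (log2 fold change 0.06, adjusted p = 0.828). Mki67, which all cycling cells express, had 3.4, 4.83 and 3.4 FPKM in aNMP-2a_D3, against 5.85, 4.95 and 6.4 FPKM in PBS_D3 (log2 fold change −0.52, adjusted p = 0.147). For Mki67 replicate 2 of aNMP-2a_D3 was the highest of its group, as it was for Aurkb (log2 fold change −0.48, adjusted p = 0.292), at 3.48, 5.97 and 3.26 FPKM in aNMP-2a_D3, against 6.67, 5.45 and 5.71 FPKM in PBS_D3. With that library alone, without the atrial-rich libraries, the list median was −0.20 and 1 member passed; without it 15 passed. Without PBS_D3 replicate 1, 2 or 3, 1, 1 or 0 members passed, without aNMP-2a_D3 replicate 1 or 3 the count was 3, and with the replicate block it was 3.

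The promoters of Cdc20 and Aurka are shown because mitotic genes are known to share the cell cycle homology region, TTTGAA, through which the DREAM and MuvB complexes act. Of the genes with a promoter, 14.4% of those tested held this motif, as did 15.6% of those that rose and 15 of the 41 that fell (36.6%). In the cell cycle list 14 of 30 genes held it (46.7%). Counted by promoter and not by gene, it was in 17.9% of all 32851 promoters in the table. Capitals mark it in Cdc20 (chr4:118437294-118437593, minus strand), where it begins 18 bases before the start site, and in Aurka (chr2:172370521-172370820, minus strand), where it begins 32 bases after it:
Cdc20: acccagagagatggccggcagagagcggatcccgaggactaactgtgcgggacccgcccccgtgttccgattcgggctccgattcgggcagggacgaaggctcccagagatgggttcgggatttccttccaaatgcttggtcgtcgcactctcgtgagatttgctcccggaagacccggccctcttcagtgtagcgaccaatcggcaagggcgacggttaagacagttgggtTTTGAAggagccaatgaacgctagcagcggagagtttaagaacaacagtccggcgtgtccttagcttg
Aurka: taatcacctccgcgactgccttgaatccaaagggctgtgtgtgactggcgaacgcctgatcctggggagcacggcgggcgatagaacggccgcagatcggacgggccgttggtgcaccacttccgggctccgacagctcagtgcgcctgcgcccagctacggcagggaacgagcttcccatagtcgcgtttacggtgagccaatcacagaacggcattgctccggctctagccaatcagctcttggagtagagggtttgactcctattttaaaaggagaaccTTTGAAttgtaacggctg

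Macrophage genes were compared by state, since aNMP-2a is named after one. Of 16 tested M2a genes, 0 passed by limma, and 4 had an unadjusted p under 0.05, which 16.8% of all genes tested had (median log2 fold change −0.08). Arg1, arginase, had 51.4, 22.8 and 18.1 FPKM in aNMP-2a_D3 and 24.6, 34.6 and 39.4 FPKM in PBS_D3, and Retnla, a resistin-like secreted protein, had 10.3, 13.1 and 5.97 FPKM in aNMP-2a_D3 and 6.36, 12.8 and 11.5 FPKM in PBS_D3. In both the groups overlapped (log2 fold changes −0.22, adjusted p = 0.832 and −0.07, adjusted p = 0.939). Mrc1, the mannose receptor, had 31.1, 39.7 and 30.7 FPKM in aNMP-2a_D3, against 32.9, 28 and 28.4 FPKM in PBS_D3 (log2 fold change 0.18, adjusted p = 0.477). The M2a chemokine gene Ccl17 had 0.29, 2.5 and 1.11 FPKM in aNMP-2a_D3, against 3.13, 2.09 and 6.11 FPKM in PBS_D3 (log2 fold change −1.34, adjusted p = 0.32). Of 7 M2b genes 0 passed and 2 had an unadjusted p under 0.05 (median −0.37). Of 21 M2c and dead-cell-uptake genes 2 rose and 0 fell (median 0.23), and 9 had an unadjusted p under 0.05.

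The M2c genes that rose were Gas6 and Selenop. Gas6, the ligand that bridges dead cells to the receptors Axl and Mertk, had 163, 157 and 174 FPKM in aNMP-2a_D3, against 121, 126 and 119.5 FPKM in PBS_D3 (log2 fold change 0.43, adjusted p = 0.0304). Selenop, a selenium carrier, had 494, 570.3 and 631 FPKM in aNMP-2a_D3, against 366, 347 and 372 FPKM in PBS_D3 (log2 fold change 0.64, adjusted p = 0.023). Fibroblasts and other cells also express both. Axl did not pass at 87.9, 97.7 and 91.2 FPKM in aNMP-2a_D3, against 75.2, 72.2 and 73.2 FPKM in PBS_D3 (log2 fold change 0.32, adjusted p = 0.0696). Among 13 genes of resident cardiac macrophages Vsig4 and Gas6 rose, 0 fell and 12 were positive (median 0.42). By limma, 8 of the 13 had an unadjusted p under 0.05, against 16.8% of all genes tested. Vsig4, a complement receptor of tissue macrophages, had 15.8, 11.2 and 7.63 FPKM in aNMP-2a_D3, against 3.15, 3.49 and 3.44 FPKM in PBS_D3 (log2 fold change 1.58, SE 0.23, adjusted p = 0.023). The summed level of Csf1r, Adgre1 and Cd68, which all macrophages carry, was between 225 and 241 FPKM in aNMP-2a_D3 and between 165 and 202 FPKM in PBS_D3, and none of these 3 genes passed. Without any 1 of the PBS_D3 libraries, Gas6 (adjusted p = 0.129, 0.101 and 0.138), Selenop (adjusted p = 0.0932, 0.0994 and 0.102) and Vsig4 (adjusted p = 0.103, 0.0892 and 0.118) did not pass.

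A further 9 lists of inflammatory genes gave no call. Of 20 genes of recruited monocytes and macrophages, 11 of mature neutrophils, 22 chemokines, 16 interleukin-1 and classical inflammation genes, 23 interferon-stimulated genes, 16 of MHC class I, 10 of MHC class II, 17 of T and NK cells and 6 of B cells, 0 passed by limma; of the 138 different genes in these lists, 13 had an unadjusted p under 0.05, which 16.8% of all genes tested had. Interferon genes varied within the groups: Igtp, an interferon-induced GTPase, had 143, 778 and 209 FPKM in aNMP-2a_D3, against 361, 566 and 194 FPKM in PBS_D3, and replicate 2 of aNMP-2a_D3 was the highest (log2 fold change −0.26, adjusted p = 0.89).

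Kdr and Cldn5 fell, while Klf2 rose. Kdr, the main VEGF receptor of endothelium, had 45.2, 43 and 47.1 FPKM in aNMP-2a_D3 and 66.4, 72.2 and 81.6 FPKM in PBS_D3, with no overlap (log2 fold change −0.69, SE 0.09, adjusted p = 0.0111). Cldn5, the tight junction protein of endothelium, had 21.1, 13.9 and 16.7 FPKM in aNMP-2a_D3, against 33.1, 35.7 and 37.4 FPKM in PBS_D3 (log2 fold change −1.03, SE 0.14, adjusted p = 0.0143). The general endothelial markers Pecam1 and Cdh5 had log2 fold changes of −0.05, adjusted p = 0.86 and −0.30, adjusted p = 0.196, without a call. Klf2, which blood flow induces in endothelium, had 75.9, 60.1 and 70.4 FPKM in aNMP-2a_D3, against 46.8, 47.7 and 41.4 FPKM in PBS_D3 and rose (log2 fold change 0.59, adjusted p = 0.0334). Of 10 VEGF ligands and receptors only Kdr passed, and of 18 junction, Tie and apelin genes only Cldn5. Of all genes tested, 1.84% passed. An unadjusted p under 0.05 by limma was found for 5 of the 10 and 6 of the 18, against 16.8% of all genes tested. Cldn5 did not pass without any 1 of the PBS_D3 libraries (adjusted p = 0.0537, 0.0636 and 0.087 by limma without replicates 1, 2 and 3), and Kdr did not pass without PBS_D3 replicate 2 (adjusted p = 0.0568) or with the atrial score (adjusted p = 0.101). Klf2 did not pass without any 1 of the PBS_D3 libraries (adjusted p = 0.108, 0.0888 and 0.14), without aNMP-2a_D3 replicate 1 or 3, or with plain empirical Bayes or the replicate block (adjusted p = 0.0518 and 0.0514).

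Few heart muscle genes passed. Of 19 sarcomere genes, 14 of calcium cycling, 23 of the respiratory chain, 27 of fatty acid use and 22 of glycolysis and hypoxia, 0 passed by limma, with median log2 fold changes between −0.13 and −0.06; 14 of the 105 genes had an unadjusted p under 0.05, against 16.8% of all genes tested. Myh7, the slow myosin heavy chain of the fetal and the stressed ventricle, was the exception among 12 fetal and wall stress genes. It had 55.4, 57.6 and 87.5 FPKM in aNMP-2a_D3, against 26.3, 22.2 and 23.5 FPKM in PBS_D3 and rose (log2 fold change 1.43, SE 0.17, adjusted p = 0.0109). An unadjusted p under 0.05 by limma was found for 2 of the 12, against 16.8% of all genes tested. Myh6, the adult fast form, had 4716, 3029.9 and 2904 FPKM in aNMP-2a_D3, against 4707, 4388 and 4104 FPKM in PBS_D3 (log2 fold change −0.34, adjusted p = 0.381). Nppa and Nppb, the natriuretic peptides, did not pass; Nppa had 3155, 192 and 9797 FPKM in aNMP-2a_D3, against 98.8, 174 and 475 FPKM in PBS_D3, high in the atrial-rich libraries, and Nppb had 248, 168 and 748 FPKM in aNMP-2a_D3, against 282, 372 and 568 FPKM in PBS_D3. Myh7 did not pass without PBS_D3 replicate 2 or 3 (adjusted p = 0.0559 and 0.0734) or with the atrial score (adjusted p = 0.133). Kcnj3, a potassium channel subunit richest in atrium, had 19.2, 16 and 25.9 FPKM in aNMP-2a_D3, against 10.5, 11.7 and 9.86 FPKM in PBS_D3. It rose (log2 fold change 0.88, adjusted p = 0.0459) and was the only 1 of 10 atrial genes that passed. An unadjusted p under 0.05 by limma was found for 4 of the 10, against 16.8% of all genes tested. Kcnj3 did not pass without any 1 of the PBS_D3 libraries (adjusted p = 0.168, 0.107 and 0.176), without aNMP-2a_D3 replicate 1 (adjusted p = 0.076) or with the atrial score (adjusted p = 0.29).

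Part of the red cell genes rose. Of 9 tested, 3 rose, 0 fell and 6 did not pass. All 9 log2 fold changes were positive and the median log2 fold change was 1.02. By limma, 6 of the 9 had an unadjusted p under 0.05, against 16.8% of all genes tested. Alas2, the heme synthesis enzyme of red cell precursors, had 35.8, 29.7 and 46.1 FPKM in aNMP-2a_D3, against 17.4, 18.1 and 16.1 FPKM in PBS_D3 (log2 fold change 1.07, SE 0.15, adjusted p = 0.0166). The beta-globin gene Hbb-bs had 5242, 4493 and 6659 FPKM in aNMP-2a_D3, against 3191, 3042 and 2756 FPKM in PBS_D3 (log2 fold change 0.85, adjusted p = 0.0297), and its near-identical neighbour Hbb-bt also rose (1.02, adjusted p = 0.0447); how fragments were shared between such copies is uncertain. Without any 1 of the PBS_D3 libraries 0 of the 9 passed. How much blood stayed in the tissue is not recorded in the labels.

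The same genes were then followed in the later comparisons, which share no library with day 3. By limma, 1 of 12711 genes (0.00787%; 989 at an unadjusted p under 0.05) passed in the day 7 comparison, Gzma, a granzyme gene of T and NK cells named after its value was seen, and 0 of 12440 (0%; 1064) in that of day 14, so the values of those days below are descriptions without calls. Of the 230 genes, 226 were tested on day 7, and 182 of them had the same sign, 146 up and 36 down; of all genes tested on both days 61.5% did. On day 14 it was 141 of 218, 112 up and 29 down, against 61.1% of all genes. Atrial transcripts also varied between the later libraries. Myl7 had 2097, 382 and 1.08 FPKM in aNMP-2a+2b_D7, against 1.86, 1350 and 8.26 FPKM in aNMP-2a+PBS_D7. On day 14 it had 2.97, 770 and 2.07 FPKM in aNMP-2a+2b+2c_D14, against 2.53, 85.1 and 930 FPKM in aNMP-2a+2b+PBS_D14. The part of atrial tissue in the signs and values of the later days was not tested. In 1 fit of the 18 libraries, the difference between the day 3 and the day 7 effect passed for 0 of 13116 genes by limma (0%; 629 at an unadjusted p under 0.05), and that between day 3 and day 14 also for 0 (0%; 642). No difference between days is therefore called for any gene below. Without replicate 1 of aNMP-2a+2b+2c_D14 the day 14 count was 89, 84 of them positive.

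Per1 had log2 fold changes of 1.98, 1.83 and 0.78 on days 3, 7 and 14, and Arntl of −2.34, −1.28 and −1.41; both had the same sign on each day, as had the other 8 called genes of the Per list and Npas2. Cry1 did not, with 0.85, −0.13 and 0.14. The median of the Per list was 1.5, 0.98 and 0.52. Mesothelial genes had a median of 1.81 on day 3, 1.05 on day 7 and −1.30 on day 14, and Upk3b had log2 fold changes of 3.18, 1.36 and −2.88. Cell cycle genes had medians of −0.48, 0.06 and 0.29. Interferon-stimulated genes, without a call on day 3 and with a median of 0.24, had medians of 1.82 on day 7 and 1.48 on day 14, when all 23 were positive; Irf7, the factor that amplifies interferon, had log2 fold changes of −0.07, 2.49 and 1.81. For Acta2 they were −1.07, −1.48 and −0.18.

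**Figure D5:**
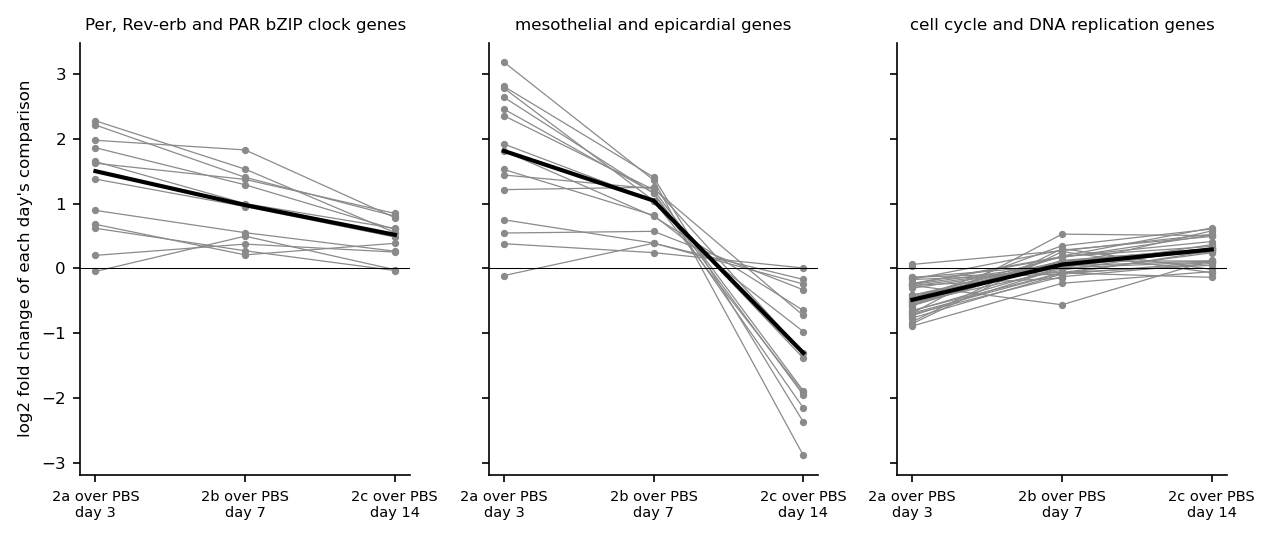
Log2 fold change of each tested member of 3 gene lists in the comparison of each day: aNMP-2a over PBS on day 3, aNMP-2b over PBS on day 7 and aNMP-2c over PBS on day 14, the later groups having had the earlier agents too. Grey lines are genes and the black line is the list median, which for mesothelial genes is 1.81, 1.05 and −1.30.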

How the data were processed

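The authors deposited a table of FPKM per gene and library, with 1 column per sample. The table states no unit; FPKM was inferred from its values, because sums weighted by transcript length varied less between the 18 libraries (coefficient of variation 2.07%) than plain sums (3.81%). HISAT2 2.1.0, Bowtie2 2.2.5, RSEM 1.2.8 and GRCm38.p6 are named per the submitters' processing notes, without their roles. Strandedness is not given in the sources used here, so a gene and its antisense partner cannot be told apart.

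Groups follow the sample titles. Log2(FPKM + 0.5) values of genes that reached 1 FPKM in 3 or more day 3 libraries were compared with limma 3.58.1 in R 4.3.3 (trended, robust empirical Bayes, no pairing), two-sided, with Benjamini-Hochberg adjustment over all genes tested; the method was tested on simulated data. Fold changes are on that scale and understate the change of low genes. For 3 against 3 samples the smallest exact permutation p is 0.1, so that test was not run. Differences between days are contrasts in 1 fit of the 18 libraries. Promoters are from RefSeq. Figures were drawn with matplotlib 3.10.9.

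The comparison, the gene lists and the tests were chosen with earlier results of these data known. Named genes are the 15 largest rises and falls among called genes without overlap and with at least 1 FPKM on average in the higher group, the 10 with the smallest p, the 10 with the highest mean, every called list member, up to 4 further members of lists with under 3 calls, and a set of anchor genes; others were chosen after their values were seen. Alternatives were other pseudocounts, filters and scalings, plain empirical Bayes, 1 fit of 18 libraries, a replicate block, an atrial score as covariate, and leaving libraries out. The result of 1 gene is not reported here.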

Additional observations from a re-analysis of the deposited data

How the results depend on the processing

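Under other pseudocounts, filters, scalings and plain empirical Bayes the day 3 count stayed between 156 and 229 genes. It moved to 3 with 1 fit of all 18 libraries and to 22 when an atrial score was a covariate; the cause was not tested. Leaving out 1 library gave 72 to 256 genes, with the lowest values without a PBS_D3 library. Median-of-ratios scaling gave 145 rises and 65 falls. Without a filter 191 genes passed, of which 154 were among the 230. The count of differences between day 3 and day 7 was 0 in all alternatives; that between day 3 and day 14 was 0 to 89 with 1 library left out, and 0 otherwise. Of 81 named genes with a call, 14 passed in every alternative but the fit of 18 libraries, and 0 changed sign in any alternative run.

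Replicate numbers were checked for pairing: deviations of same-numbered libraries correlated at 0.152, −0.0367 and 0.290, so the numbers were not taken as pairs. With the replicate block 231 genes passed, of which 171 were among the 230, 21 named genes lost their call, and both counts of differences between days were 0.

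Read counts are not in the table, so no counting error can be given, and low genes depend on the value added to FPKM. Groups of 3 are small, and the labels name no animal.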

Other observations

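Ptgs1, Ptgis and Hpgd, 3 genes of prostaglandin metabolism, were singled out after their values were seen and rose on day 3; other genes of the pathway were not counted. Ptgs1, the constitutive cyclooxygenase, had 20.4, 18.6 and 15.6 FPKM in aNMP-2a_D3, against 9.41, 8.73 and 8.77 FPKM in PBS_D3 (log2 fold change 0.97, adjusted p = 0.00459). Ptgis, prostacyclin synthase, had 72.5, 77.5 and 96.4 FPKM in aNMP-2a_D3, against 47.1, 38 and 48.7 FPKM in PBS_D3 (log2 fold change 0.87, adjusted p = 0.0222). Hpgd, which inactivates prostaglandins, had 20.5, 18.1 and 16.6 FPKM in aNMP-2a_D3, against 10.8, 11.3 and 10.9 FPKM in PBS_D3 (log2 fold change 0.71, adjusted p = 0.0101). In each of the 3 the groups did not overlap.

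Further mitotic genes outside the list fell and were likewise named after their values were seen: Cks2, a partner of cyclin-dependent kinases (−0.76, adjusted p = 0.00909), Kif22, a chromosome-moving kinesin (−0.67, adjusted p = 0.028), Nek2, a centrosome kinase (−0.79, adjusted p = 0.0391), and Ttk, a spindle checkpoint kinase (−0.81, adjusted p = 0.0402), all as log2 fold changes. Gins2, a subunit of the replicative helicase that is not on the list, also fell and was chosen in the same way (log2 fold change −0.67, adjusted p = 0.0204). Wee1, a kinase that holds back entry into mitosis and is also an output of the clock, had 8.72, 8.62 and 6.54 FPKM in aNMP-2a_D3, against 4.53, 2.77 and 3.41 FPKM in PBS_D3 and rose (log2 fold change 1.07, adjusted p = 0.0291).

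Npr3 and Bmx rose, unlike Kdr and Cldn5; other genes of endocardium and arteries were not counted. Npr3, a natriuretic peptide receptor rich in endocardium, had 9.08, 10.1 and 12.9 FPKM in aNMP-2a_D3, against 3.17, 5 and 2.91 FPKM in PBS_D3 (log2 fold change 1.43, adjusted p = 0.0196), and Bmx, a kinase of arterial endothelium, had 3.09, 3.17 and 5.51 FPKM in aNMP-2a_D3, against 1.26, 1.5 and 1.7 FPKM in PBS_D3 (log2 fold change 1.12, adjusted p = 0.0431). Both were chosen after their values were seen.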
